A study of Mus musculus with 16 samples.

Results

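Heat shock chaperones are proteins that bind unfolded or newly made polypeptides and help them fold. The members described here are 8 genes, chosen by their symbols out of 10296 genes listed in the deposited table: Hspa8, Hspa5, Hspa1a, Hspa1b, Hsp90aa1, Hsp90ab1, Dnaja1 and Dnajb1. All 8 were found. Hspa8, Hspa5, Hsp90ab1 and Dnaja1 were taken as constitutive members and Hspa1a, Hspa1b, Hsp90aa1 and Dnajb1 as stress-inducible members, 4 of each.

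The study sequenced complementary DNA amplified from the RNA of neutrophils that had been sorted from C57BL/6 mice by flow cytometry with CD45, CD11b, Ly6G and the dye DAPI. Germ-free mice (GF) were kept without microorganisms, and specific pathogen free mice (SPF) carried a microbiota without listed pathogens. GF mice gave 3 lung, 3 spleen and 2 blood libraries, and SPF mice likewise 3 lung, 3 spleen and 2 blood libraries. The labels name microbial status as the difference between the animals and name no transgene or drug, and no age is given in the labels used here. Whether libraries of a group came from separate mice is not stated either, so a p-value here sets a difference against a spread of libraries that may be technical.

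HSP70 proteins hold exposed hydrophobic stretches of a client in a cycle of ATP binding and hydrolysis. J-domain proteins deliver clients and start that hydrolysis, and HSP90 takes over clients such as steroid receptors and kinases at a late folding step. Constitutive members do this work in unstressed cells, while the inducible ones are transcribed by heat shock factor HSF1 when unfolded protein accumulates. HSPA5, also called BiP, is the HSP70 of the endoplasmic reticulum and is induced by the unfolded protein response rather than by HSF1.

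Sequencing depth was low in spleen and uneven. The table implied 104213 to 3033941 reads per library, with a median of 856319 in lung, 199487 in spleen and 2712907 in blood, and 5 libraries were under 250000 reads (GF spleen replicates 1 and 4, SPF spleen replicates 1 and 4, GF blood replicate 3). A level below is a normalised count, the deposited value less the value at 0 reads, and 1 read was worth 0.392 to 7.62 of these units. All 7 neutrophil markers checked (S100a8, S100a9, Csf3r, Cxcr2, Ly6g, Retnlg and Mmp9) had reads in every group, with summed levels of 28863 to 50705 in lung, 32711 to 70269 in spleen and 49112 to 88788 in blood. The libraries also held RNA of other cells. Markers of lung epithelium, endothelium and stroma summed to 4521 to 11360 in GF lung and 2917 to 5770 in SPF lung, against 7.41 to 51.9 in the other libraries. In bulk libraries such as these, fewer cells of a type and less RNA per cell cannot be told apart.

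Hspa1a and Hspa1b are neighbouring single-exon genes for the inducible cytosolic HSP70, on the minus strand of mouse chromosome 17 (chr17:34969190-34972156 and chr17:34956436-34959238, GRCm38, GENCODE M21). Their sequences are shown first because they decide how reads of these genes can be read. The 250 bases before each start, from the RefSeq promoter table (GRCm38.p6, minus strand, chr17:34972157-34972406 and chr17:34959239-34959488), differ at 3 positions. Capitals mark the one match to GAANNTTC, a pair of inverted repeats of the unit GAA that HSF1 binds, 97 bases before the start in both genes.
Hspa1a: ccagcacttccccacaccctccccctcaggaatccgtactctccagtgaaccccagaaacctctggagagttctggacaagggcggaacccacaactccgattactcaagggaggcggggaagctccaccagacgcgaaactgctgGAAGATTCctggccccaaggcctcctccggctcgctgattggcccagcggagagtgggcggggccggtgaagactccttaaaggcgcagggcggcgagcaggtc
Hspa1b: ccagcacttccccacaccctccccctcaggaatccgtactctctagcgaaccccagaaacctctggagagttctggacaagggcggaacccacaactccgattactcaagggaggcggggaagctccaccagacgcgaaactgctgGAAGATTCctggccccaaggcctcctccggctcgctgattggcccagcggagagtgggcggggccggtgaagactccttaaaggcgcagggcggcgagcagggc
The search read both strands, and 6.69% of the 32851 promoter windows hold the same letters within the 250 bases, so a match only describes the window. The longer element of 3 such units in alternating orientation was searched too, and it stands in 0.466% of windows. No promoter window of Hspa1a, Hspa1b, Hspa5, Dnaja1 or Dnajb1 holds that longer element. A match to the pair of units is therefore not taken as a site bound by HSF1. The tail-to-tail form TTCNNGAA stands in 7.17% of windows, and 12.8% hold at least one of these forms.

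The coding sequences, 1926 bases in Hspa1a and 1929 in Hspa1b, are identical at 99.6% of 1926 aligned positions. They differ at 8 positions and by 3 extra bases in Hspa1b. The last 90 coding bases of each gene (GENCODE M21, minus strand) show 2 of those positions and the extra bases, all in capitals.
Hspa1a: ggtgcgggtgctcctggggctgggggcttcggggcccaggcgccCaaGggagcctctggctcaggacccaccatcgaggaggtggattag
Hspa1b: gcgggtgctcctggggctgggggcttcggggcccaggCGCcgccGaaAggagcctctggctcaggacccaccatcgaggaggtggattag
Of all 61-base windows of the Hspa1a transcript, 56.0% occur unchanged in the Hspa1b transcript, and 59.4% of those of Hspa1b occur in Hspa1a. No other member shared a window of that length with another member. Reads of the pair were accordingly divided in the deposited values: the reads of each gene were fractional, by more than 0.05, in 12 of 16 libraries, while their sum was within 0.05 of a whole number in all 16. The 2 genes are therefore given apart and summed, and their separate values are uncertain.

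Other members carry other letters. Hspa5 (chr2:34771970-34777547, plus strand) holds 1 match to the endoplasmic reticulum stress element, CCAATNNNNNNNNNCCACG, 47 bases before its RefSeq start (chr2:34772025-34772043, plus strand, GRCm38.p6). GENCODE M21 starts the gene further upstream, so the match lies inside the gene by that annotation.
Hspa5: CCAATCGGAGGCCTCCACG
That motif, which stands in 0.113% of windows, overlaps the shorter CCAAT and CCACG, which stand in 33.8% and 28.3%. Dnaja1 (chr4:40722150-40737149, plus strand), a J-domain partner of cytosolic HSP70, holds GAAAATTC 117 bases before one of its RefSeq starts. That site (chr4:40722344-40722351, plus strand, GRCm38.p6) also lies inside the gene as GENCODE M21 bounds it. Dnajb1 (chr8:83608193-83612653, plus strand), the inducible J-domain protein, has no match to GAANNTTC or TTCNNGAA in its windows. Promoter windows were matched for 5 of the 8 members. The others, Hspa8 (chr9:40800984-40810087, plus strand), Hsp90aa1 (chr12:110690605-110702728, minus strand) and Hsp90ab1 (chr17:45567775-45573271, minus strand), are named only. Hspa8 hosts the small nucleolar RNAs Snord14c, Snord14d and Snord14e. Hspa1a overlaps Gm20481 on the opposite strand, and Dnaja1 overlaps Smu1, Gm6297 and Mir207, and reads of overlapping genes cannot be told apart without strand.

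Constitutive members were the most abundant. On the scale of normalised counts per kilobase of the principal transcript, averaged over the 6 groups, Hspa8 stood at 488, Hspa5 at 168, Hsp90ab1 at 80.0 and Dnaja1 at 62.1. The inducible members followed, with Dnajb1 at 27.2, Hsp90aa1 at 22.2, Hspa1b at 7.31 and Hspa1a at 6.26. Across single libraries Hspa8 ran between 178 and 680 per kilobase, above the highest value of each of the 4 inducible members. All 8 members were tested, although Hspa1a reached a level of 10 in 9 libraries and Hspa1b in 12, against 16 for the others.

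**Figure D1:**
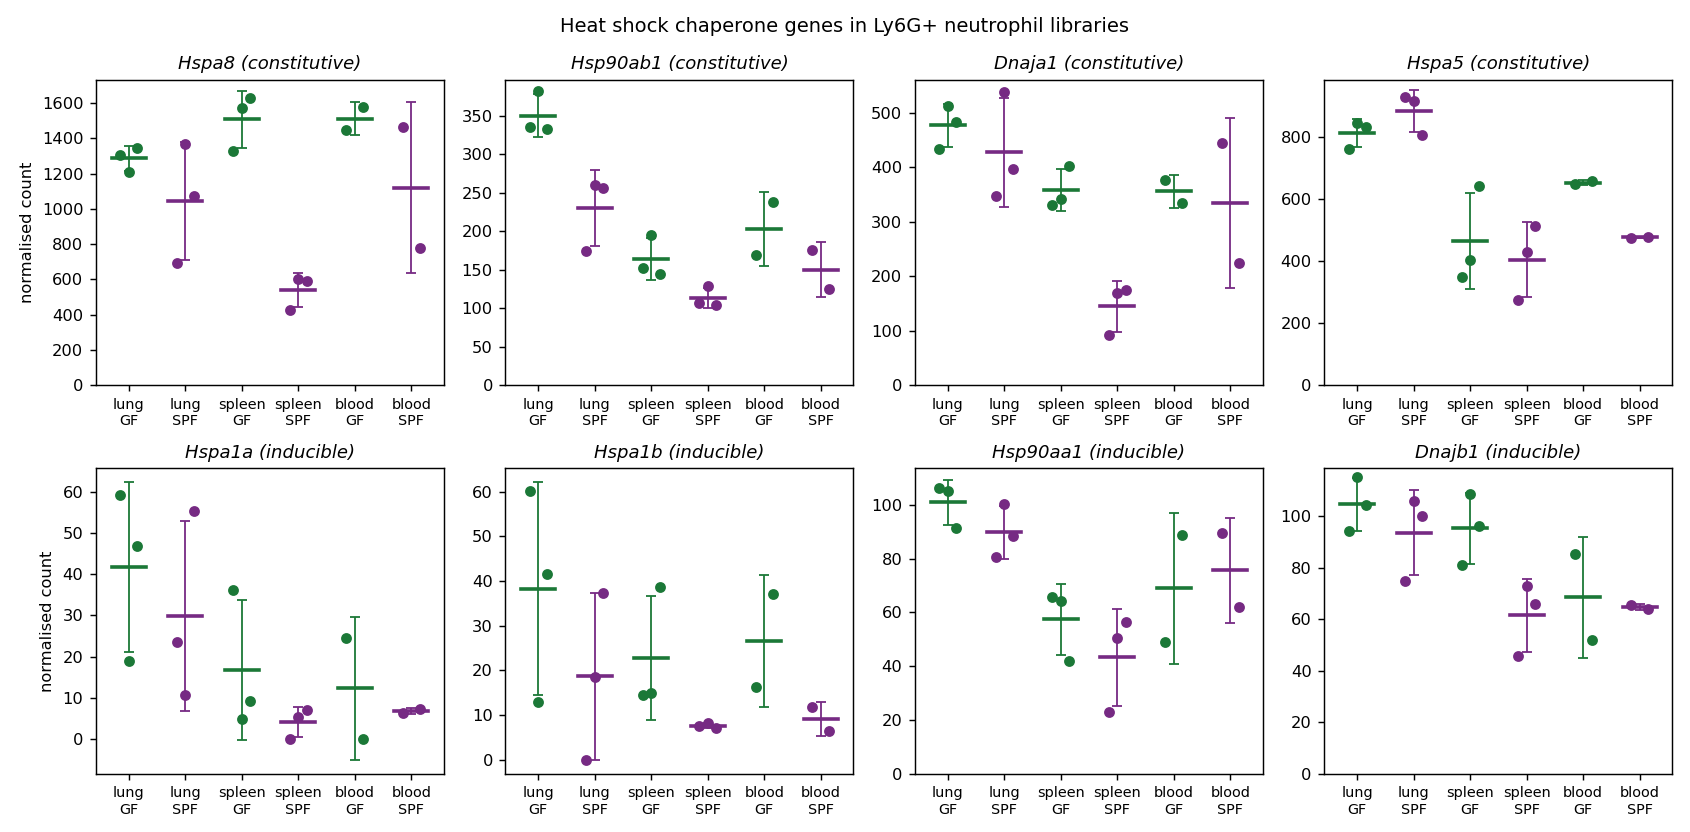
Normalised counts of the 8 members (vertical axes, 1 panel per gene) in each group, with GF in green and SPF in purple. Points are libraries, horizontal lines are group means and bars are SD (n = 3 in lung and spleen, n = 2 in blood). Every member has its lowest group mean in SPF spleen, Hspa5 is highest in lung, and Hspa1a and Hspa1b stay at or under 60.3.

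Among tissues, 7 of the 8 members had their highest group mean in lung, in GF as in SPF mice, and Hspa8 had its highest in blood. The lowest mean lay in spleen for all 8 members in SPF mice. In GF mice it lay in spleen for 4, in blood for 3 (Hspa1a, Dnaja1 and Dnajb1) and in lung for Hspa8. In SPF mice, 5 of the 8 members were higher in lung than in spleen and 0 were lower (limma, adjusted p under 0.05), where 7.68% of the 8299 genes tested were called higher. The median log2 difference was 1.01 over the members and 0.06 over all genes tested. The libraries of lung and spleen did not overlap for 7 members, against 18.2% of all genes in that direction. The 5 were 4 constitutive members and the inducible Hsp90aa1.

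Dnaja1 had levels of 347, 538 and 396 in SPF lung replicates 1, 2 and 3, against 90.9, 168 and 174 in SPF spleen replicates 1, 2 and 4. Every lung library stood above every spleen library (log2 difference 1.56, SE 0.25, adjusted p = 3.7e-05). Hspa5 measured 932, 916 and 809 in SPF lung, against 274, 429 and 513 in SPF spleen, again with no overlap (1.16, SE 0.22, adjusted p = 0.000366). Hspa8, the housekeeping HSP70 of the cytosol, measured 694, 1366 and 1074 in SPF lung and 427, 600.2 and 593 in SPF spleen (0.91, SE 0.23, adjusted p = 0.00663). The lowest lung library exceeded the highest spleen library by less than the lung libraries differed among themselves, and the call was lost without SPF lung replicate 2 (0.69, adjusted p = 0.0825). It was also lost without the trended and robust prior, the part of the fit that moderates each gene's spread (adjusted p = 0.104), and without the libraries under 250000 reads (adjusted p = 0.199).

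Both HSP90 genes were higher in lung in that comparison. Hsp90ab1, the constitutive cytosolic HSP90, measured 173, 260 and 256 in SPF lung and 107, 128 and 104 in SPF spleen (0.98, SE 0.24, adjusted p = 0.0055). Hsp90aa1, its inducible counterpart, measured 80.8, 100.2 and 88.5 in SPF lung and 22.9, 50.6 and 56.4 in SPF spleen (1.04, SE 0.33, adjusted p = 0.0367). The 22.9 of SPF spleen replicate 1 rested on 3 reads, and without that library the difference was 0.70 (adjusted p = 0.166). The call was also lost without GF lung replicate 3 (adjusted p = 0.0501) and without SPF lung replicate 1, 2 or 3 (adjusted p = 0.0656, 0.141 and 0.104). Without that prior it was lost as well (adjusted p = 0.085), and without the libraries under 250000 reads both Hsp90aa1 and Hsp90ab1 were (adjusted p = 0.12 and 0.0673).

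The remaining inducible members did not pass singly, and the intervals of Hspa1a and Hspa1b were wide. Dnajb1 measured 74.9, 106 and 99.95 in SPF lung and 45.7, 73.0 and 65.8 in SPF spleen, with no overlap and a difference of 0.56 (95% interval -0.01 to 1.13, adjusted p = 0.253). Hspa1a measured 23.7, 10.7 and 55.3 in SPF lung and 0, 5.29 and 7.10 in SPF spleen (1.89, 95% interval 0.49 to 3.28, adjusted p = 0.0847). Hspa1b measured 0, 18.5 and 37.4 in SPF lung and 7.62, 8.12 and 7.01 in SPF spleen (0.10, 95% interval -1.64 to 1.83, adjusted p = 0.972). The library at 0 for Hspa1b, SPF lung replicate 1, gave all 12 reads of the pair to Hspa1a, and the library at 0 for Hspa1a, SPF spleen replicate 1, gave the single read of the pair to Hspa1b. A count of 0 allows up to 3 reads, a level of 5.91 for Hspa1b in that lung library and of 22.9 for Hspa1a in that spleen library, counting error only. Summed, the pair stood at 23.7, 29.1 and 92.7 in SPF lung and at 7.62, 13.4 and 14.1 in SPF spleen. The sum was higher in lung, close to the threshold (1.50, SE 0.49, adjusted p = 0.0486 in limma). The SPF spleen sums rested on 1, 9 and 3 reads, and the sum was not refitted under other settings.

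In GF mice 2 of the 8 members were higher in lung than in spleen and 0 lower, where 8.03% of genes were called higher. The median log2 difference was 0.65 over the members and 0.11 over all genes, and 4 members did not overlap, against 21.2% of all genes. Hsp90ab1 measured 336, 382 and 332 in GF lung replicates 2, 3 and 4, against 152, 195 and 144 in GF spleen replicates 1, 3 and 4 (1.08, SE 0.24, adjusted p = 0.00194). Hspa5 measured 763, 847 and 832 in GF lung and 350.0, 402 and 643 in GF spleen (0.85, SE 0.22, adjusted p = 0.01). Neither gene overlapped between these tissues. The Hspa5 call was lost without GF spleen replicate 1 (0.67, adjusted p = 0.0724) and without GF spleen replicate 3 (0.77, adjusted p = 0.0598), and without the prior (adjusted p = 0.0982). That of Hsp90ab1 was lost without the libraries under 250000 reads (0.83, adjusted p = 0.0588).

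Hspa8 and Dnaja1, called in SPF mice, differed less between the same tissues in GF mice. Hspa8 measured 1304, 1207 and 1348 in GF lung and 1326, 1575 and 1628 in GF spleen, overlapping ranges with a difference of -0.23 (95% interval -0.69 to 0.23, adjusted p = 0.617). Dnaja1 measured 433, 512 and 483 in GF lung and 329.7, 341 and 402 in GF spleen (0.41, 95% interval -0.11 to 0.92, adjusted p = 0.373). The test of the difference between GF and SPF mice in this tissue contrast called neither. The interaction was -1.14 for Hspa8 (adjusted p = 0.458) and -1.16 for Dnaja1 (adjusted p = 0.533) in limma. That interaction called 0 of the 8 members, 2 of which had an unadjusted p under 0.05, and 0.012% of all genes.

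Against blood, the endoplasmic reticulum member was higher in the lung of SPF mice. Hspa5 measured 932, 916 and 809 in SPF lung and 477 and 479 in SPF blood replicates 3 and 4, with no overlap (0.89, SE 0.25, adjusted p = 0.0106). It was the 1 member called of 8, which is no more than the 12.5% of all genes called higher. The call was lost without SPF blood replicate 3 (adjusted p = 0.0888), without replicate 4 (adjusted p = 0.0687) and without the prior (adjusted p = 0.0897). A further 2 members had an unadjusted p under 0.05. The member median was 0.46 and that of all genes 0.16, and 3 members did not overlap, against 29.6% of genes.

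In GF mice limma called 0 of the 8 members between lung and blood, with 2 at an unadjusted p under 0.05, where 9.8% of genes were called. Hsp90ab1 came closest, at 336, 382 and 332 in GF lung and 169 and 237 in GF blood replicates 2 and 3 (0.79, SE 0.27, adjusted p = 0.0558). Hspa5 measured 763, 847 and 832 in GF lung and 648 and 659 in GF blood (0.31, 95% interval -0.19 to 0.82). Non-overlap in favour of lung held for 5 members, against 28.8% of genes. Hspa8 did not overlap in the opposite direction, as 14.6% of genes did, at 1304, 1207 and 1348 in GF lung and 1447 and 1578 in GF blood (-0.23, 95% interval -0.75 to 0.28, adjusted p = 0.649). The interaction between this tissue contrast and status called 0 members in limma, with 0 at an unadjusted p under 0.05, and 0.012% of genes.

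Between spleen and blood in SPF mice, 2 members that partner each other were called, both lower in spleen, where 4.01% of genes were called lower. Hspa8 measured 427, 600.2 and 593 in SPF spleen and 1463 and 778 in SPF blood (-0.99, SE 0.25, adjusted p = 0.0153). Dnaja1 measured 90.9, 168 and 174 in SPF spleen and 444 and 224 in SPF blood (-1.15, SE 0.28, adjusted p = 0.0117). Hsp90aa1, at 22.9, 50.6 and 56.4 in SPF spleen and 89.4 and 61.9 in SPF blood, was the remaining member with an unadjusted p under 0.05 (-0.77, adjusted p = 0.193). These 3 members were lower in spleen with no overlap, against 23.7% of genes. The 2 SPF blood libraries lay far apart. Without SPF blood replicate 3 the differences were -0.54 for Hspa8 and -0.66 for Dnaja1 (adjusted p = 0.476 and 0.433), and without SPF spleen replicate 1 they were -0.83 and -0.87 (adjusted p = 0.0537 and 0.0542). Both calls were also lost without the prior (adjusted p = 0.135 and 0.105) and without the libraries under 250000 reads (adjusted p = 0.192 and 0.112), and that of Hspa8 under quantile normalization (-0.63, adjusted p = 0.123). In GF mice limma called 0 members between spleen and blood, with 1 at an unadjusted p under 0.05, and 0.88% of genes. There Hspa8 measured 1326, 1575 and 1628 in spleen and 1447 and 1578 in blood. The interaction called 0 members in limma, 2 of them at an unadjusted p under 0.05, and 0.759% of genes (Hspa8 0.99, adjusted p = 0.19, and Dnaja1 1.16, adjusted p = 0.162).

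**Figure D2:**
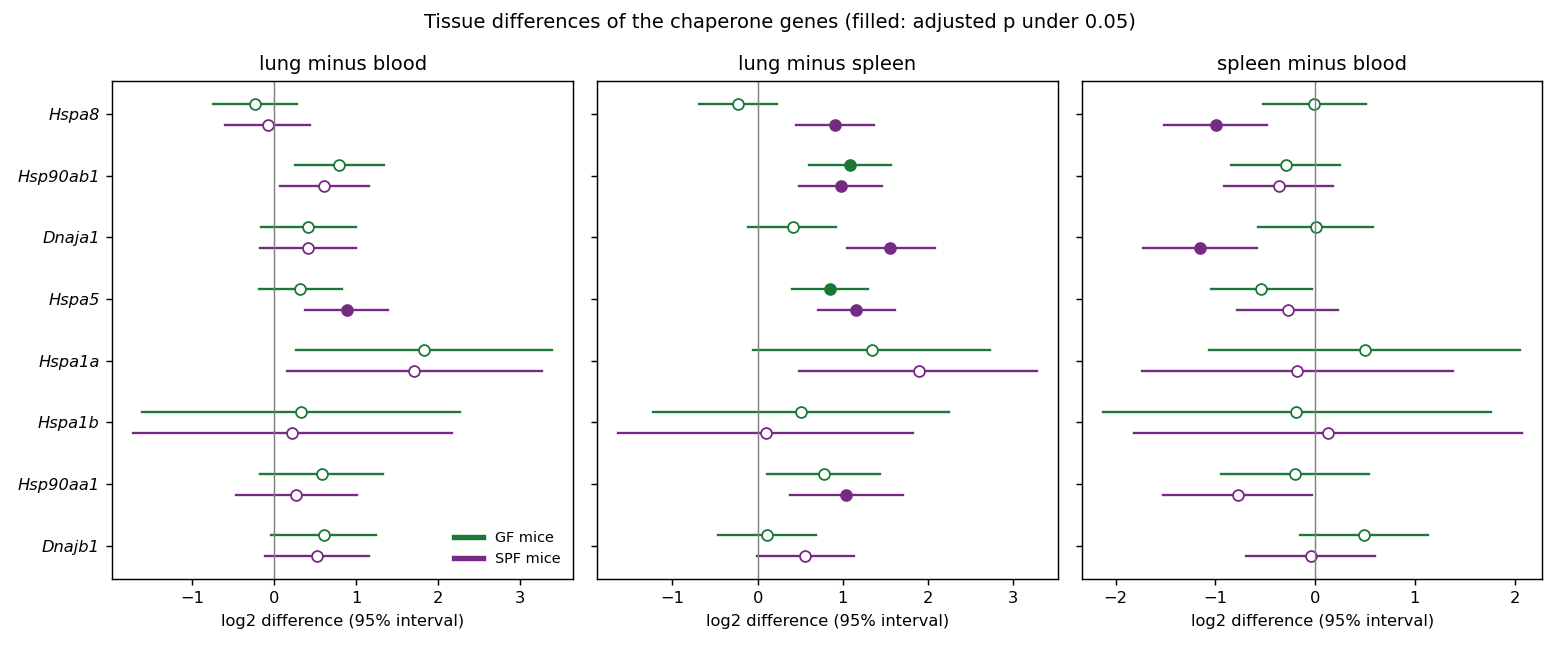
Log2 differences of log2(value + 1) between tissues (horizontal axes) for each member, in GF mice in green above SPF mice in purple, with 95% intervals from limma. Filled points passed an adjusted p of 0.05. The filled points right of 0 lie in the panels of lung against spleen (2 in GF, 5 in SPF) and lung against blood (1 in SPF), and the 2 left of 0 are Hspa8 and Dnaja1 in spleen against blood, SPF.

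Other transcripts moved with the tissue contrasts. Immediate early genes, which also respond to tissue handling, summed to 28935 to 36570 in GF lung and 28112 to 37540 in SPF lung, against 5442 to 7525 in GF spleen, 4535 to 11452 in SPF spleen, 6723 to 9635 in GF blood and 9777 to 12676 in SPF blood. Of 19 tested, 15 were higher and 1 lower (Klf6, -0.68) in lung than in spleen in GF mice, and 14 were higher and 0 lower in SPF mice. All 9 lung structural markers tested were higher in lung than in spleen in both kinds of mice, with 5 of the 9 at 0 reads in all libraries of a spleen group. Sftpa1, a surfactant protein of the lung epithelium, stood at 1106 ± 507 in GF lung and 397 ± 118 in SPF lung (SD, n = 3), against 0 reads in every spleen library. Neutrophil markers moved the other way, with 3 of 7 lower in lung than in spleen in both kinds of mice. Against blood, 2 of the 7 were lower in GF lung, and 4 were lower and 1 higher in SPF lung.

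Blood carried erythrocyte and platelet RNA. Erythroid and platelet markers summed to 47.8 to 2079 in GF lung, 432 to 1792 in SPF lung, 42.0 to 21992 in GF spleen and 70.5 to 107 in SPF spleen, against 81768 to 99466 in GF blood and 44267 to 70407 in SPF blood. Of 8 tested, 6 were lower in lung than in blood in GF mice and 3 in SPF mice, and 3 were lower in spleen than in blood in GF mice and 7 in SPF mice. Macrophage markers summed to 997 to 1283 in SPF spleen and 515 to 678 in SPF blood, and 5 of 6 were higher in that spleen. All 4 B cell markers were higher in lung than in blood in SPF mice and 2 were higher in lung than in spleen. Depth moved with tissue as well. The part of these cells, of handling and of depth in the members' differences was not tested.

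Between GF and SPF mice, members were called within a tissue in spleen, and they were the cytosolic Hspa8 and its partner Dnaja1. Of the 8 members 2 were higher in GF than in SPF spleen and 0 lower, where 0.253% of genes were called higher. The median log2 difference was 0.87 over the members and 0.01 over all genes, and all 8 differences were positive. For 5 members the groups did not overlap, with GF higher, against 6.22% of all genes. Hspa8 measured 1326, 1575 and 1628 in GF spleen, against 427, 600.2 and 593 in SPF spleen, where every GF library exceeded the highest SPF library by more than the SPF libraries spanned (1.49, SE 0.23, adjusted p = 0.00131). Dnaja1 measured 329.7, 341 and 402 in GF spleen, against 90.9, 168 and 174 in SPF spleen, with no overlap (1.34, SE 0.25, adjusted p = 0.00947).

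The reads behind these values were few. Hspa8 had 262, 638 and 271 reads in GF spleen and 56.0, 403 and 126 in SPF spleen, and Dnaja1 had 65, 138 and 67 in GF spleen and 11.9, 113 and 37 in SPF spleen. With the libraries under 250000 reads left out, 1 library of each spleen group remained. The differences were then 1.39 for Hspa8 and 1.01 for Dnaja1, and limma, which lends the lone libraries the spread of the other groups, called neither (adjusted p = 0.129 and 0.211). The call of Dnaja1 was also lost without GF spleen replicate 4 (1.25, adjusted p = 0.0647), and without the prior neither passed (adjusted p = 0.104 for Hspa8 and 0.145 for Dnaja1).

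The remaining members did not pass the test between the spleen groups. Hsp90ab1 measured 152, 195 and 144 in GF spleen and 107, 128 and 104 in SPF spleen (0.52, 95% interval 0.03 to 1.01, adjusted p = 0.365). Dnajb1 measured 81.2, 109 and 96.1 in GF spleen and 45.7, 73.0 and 65.8 in SPF spleen (0.62, 95% interval 0.04 to 1.19, adjusted p = 0.365). Neither gene overlapped. Hsp90aa1 overlapped, at 65.9, 64.2 and 42.1 in GF spleen and 22.9, 50.6 and 56.4 in SPF spleen (0.43, 95% interval -0.23 to 1.10, adjusted p = 0.639). The summed pair of Hspa1a and Hspa1b stood at 50.7, 19.8 and 48.1 in GF spleen, on 10, 8 and 8 reads, and at 7.62, 13.4 and 14.1 in SPF spleen, on 1, 9 and 3 reads (1.41, 95% interval 0.41 to 2.41, adjusted p = 0.21). Hspa5 overlapped between the groups, at 350.0, 402 and 643 in GF spleen and 274, 429 and 513 in SPF spleen (0.19, 95% interval -0.26 to 0.64, adjusted p = 0.789).

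Marker sums had overlapping ranges in the spleen groups, with 3 libraries in each. Neutrophil markers summed to 32711 to 70269 in GF and 39711 to 65461 in SPF spleen, macrophage markers to 1090 to 1369 in GF and 997 to 1283 in SPF spleen, and immediate early genes to 5442 to 7525 in GF and 4535 to 11452 in SPF spleen. Erythroid and platelet markers ran from 42.0 to 21992 in GF spleen, the highest being 1 library, and from 70.5 to 107 in SPF spleen. B cell markers summed to 24.0 to 46.9 in GF and 0 to 34.3 in SPF spleen. None of the tested cell markers or immediate early genes was called between these groups. The part of other cells in the differences of Hspa8 and Dnaja1 was not tested.

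In lung and in blood the comparison of status called no member. In lung limma called 0 of 8, with 1 at an unadjusted p under 0.05, and 0.0241% of genes. That member was Hsp90ab1 (0.62, 95% interval 0.14 to 1.11, adjusted p = 0.999). It measured 336, 382 and 332 in GF lung and 173, 260 and 256 in SPF lung. In blood limma called 0 of 8, with 0 at an unadjusted p under 0.05, and 1.33% of genes. Hspa8 measured 1447 and 1578 in GF blood and 1463 and 778 in SPF blood (0.50, 95% interval -0.06 to 1.07). Hspa5 measured 648 and 659 in GF blood and 477 and 479 in SPF blood (0.46, 95% interval -0.10 to 1.01, adjusted p = 0.414).

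Averaged over the 3 tissues, Hspa8 alone among the members was higher in GF mice (0.78, SE 0.14, adjusted p = 0.00314), where 0.94% of genes were called higher. The call was lost without the prior (adjusted p = 0.141) and without the libraries under 250000 reads (0.73, adjusted p = 0.0671). Hsp90ab1 and Dnaja1 followed at 0.53 and 0.56 (adjusted p = 0.0681 and 0.0676). Hspa5, Hsp90aa1 and Dnajb1 gave 0.18, 0.15 and 0.29, with intervals that include 0. The summed pair of Hspa1a and Hspa1b was higher in GF mice by 1.16 (SE 0.31, adjusted p = 0.0486), while apart Hspa1b gave 1.37 (adjusted p = 0.21) and Hspa1a 0.73 (adjusted p = 0.43). That call of the sum was close to the threshold and was not refitted under other settings.

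**Figure D3:**
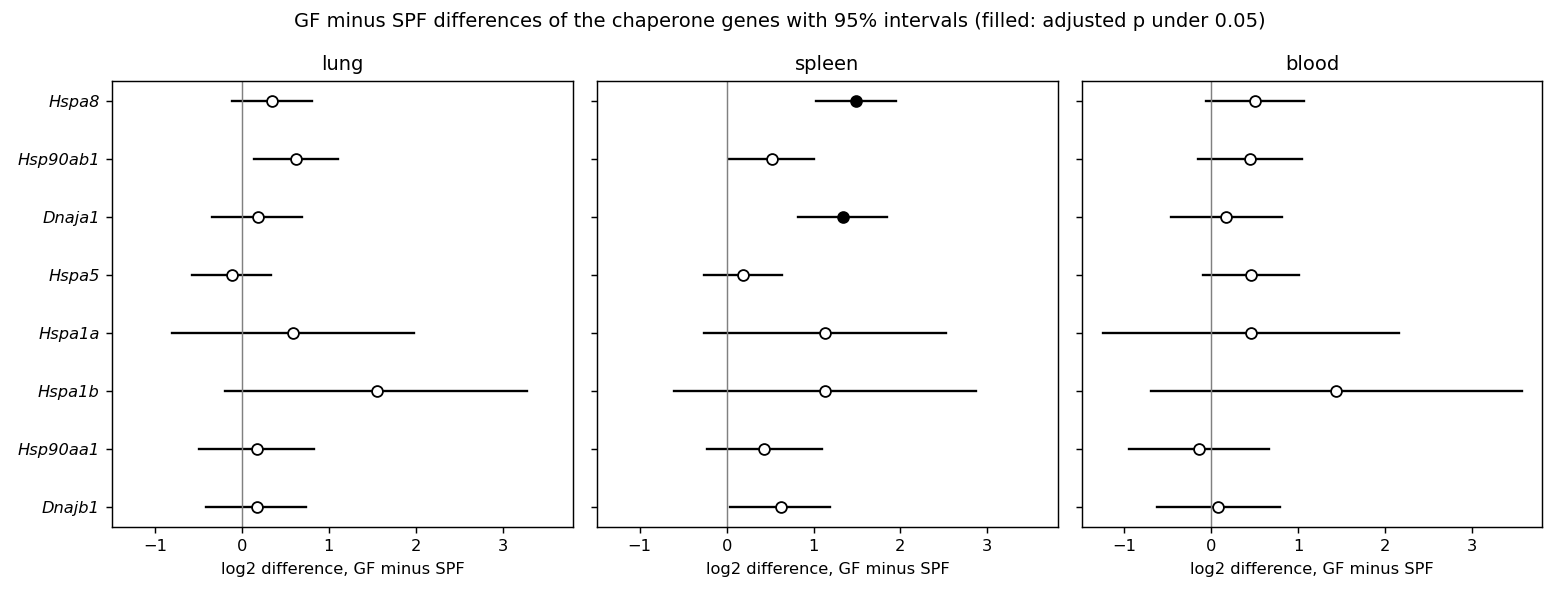
Log2 differences of log2(value + 1), GF minus SPF (horizontal axes), for each member in lung, spleen and blood, with 95% intervals from limma. Filled points passed an adjusted p of 0.05, and these are Hspa8 (1.49) and Dnaja1 (1.34) in spleen.

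Inducible members did not keep a fixed ratio to their constitutive counterparts. These ratios of levels are described without a test. Hspa1a and Hspa1b together amounted to 2.64% to 9.17% of Hspa8 in GF lung and 2.13% to 8.63% in SPF lung, against 1.25% to 3.82% in GF spleen, 1.79% to 2.38% in SPF spleen, 2.35% to 2.81% in GF blood and 1.24% to 1.76% in SPF blood. Both lung groups reached above every other library, and both also held a library within the range of the spleen. Dnajb1 amounted to 37.8% to 50.3% of Dnaja1 in SPF spleen, above the 14.7% to 31.9% of all other libraries, where the Dnaja1 levels were lowest. Hsp90aa1 amounted to 27.5% to 31.7% of Hsp90ab1 in GF lung and 34.6% to 46.6% in SPF lung, and to 29.1% and 37.5% in GF blood and 51.0% and 49.8% in SPF blood. The ranges of GF and SPF libraries did not overlap in lung or in blood. They overlapped in spleen, at 29.2% to 43.3% in GF and 21.4% to 54.6% in SPF. The nearest lung libraries, GF replicate 2 and SPF replicate 3, held 88 and 85 reads of Hsp90aa1, and GF blood replicate 3 held 12. How often other gene pairs separate in this way was not counted.

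**Figure D4:**
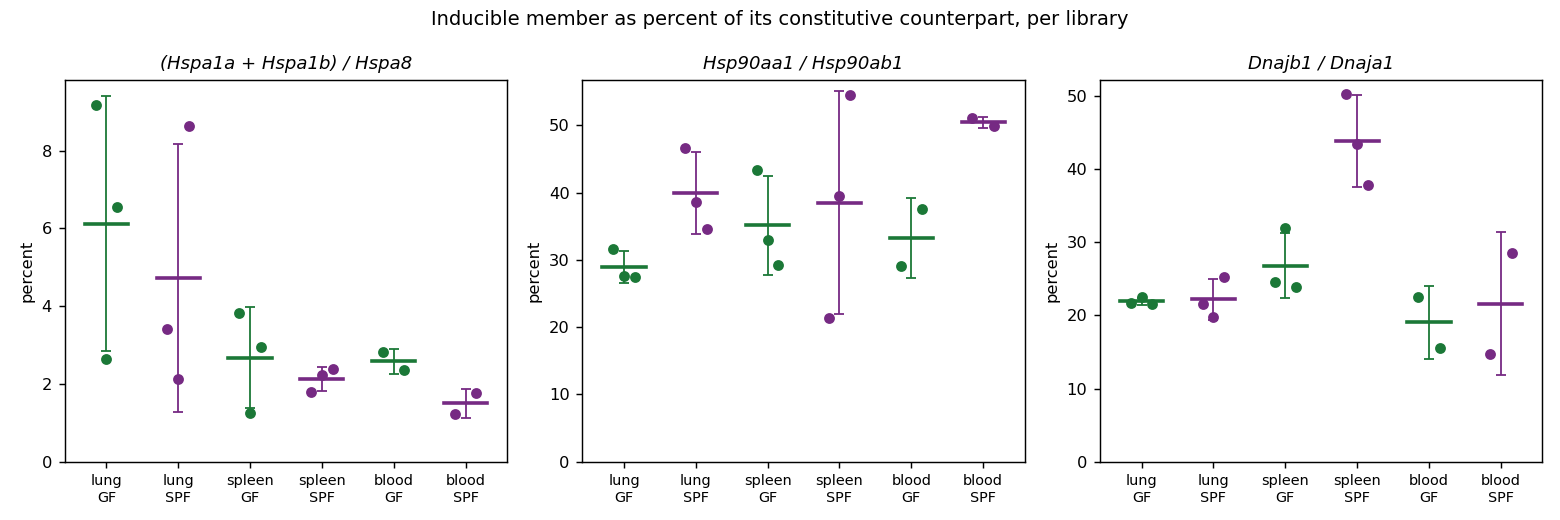
Level of each inducible member as percent of its constitutive counterpart (vertical axes) in each library, with GF in green and SPF in purple. Points are libraries, lines are group means and bars are SD (n = 3 in lung and spleen, n = 2 in blood). Dnajb1 relative to Dnaja1 is highest in the 3 SPF spleen libraries (37.8% to 50.3%), and the sum of Hspa1a and Hspa1b relative to Hspa8 is highest in single lung libraries (9.17% and 8.63%).

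Across the 16 libraries, members resembled each other to different degrees. Hspa8 and Dnaja1 had the highest Pearson correlation of log2(value + 1) among the 28 pairs (r = 0.85), followed by Hsp90aa1 and Hsp90ab1 (0.80). Hspa1a and Hspa1b, with divided reads, gave 0.29, and Hspa5 and Hspa8 0.38. These correlations are descriptions over libraries that share tissue, status and depth. Outside the family, the genes of most similar pattern to Hspa8 were Tcn2 (0.91), Tagln2 (0.90), Trf (0.90), Hdc (0.89) and Cd44 (0.89). Hdc, the enzyme that makes histamine, averaged 3670 in GF spleen and 1378 in SPF spleen, and Tcn2, which carries vitamin B12, 792 in GF spleen and 308 in SPF spleen. For Hspa5 they were Stk17b, Arf2 and Arf4 (0.93 each), Arrdc4 and Srxn1 (0.91 each). For Hspa1a they were Qsox1 (0.90), Tfip11 (0.84), Ptma (0.83), Errfi1 (0.82) and Sephs1 (0.80).

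Other genes of the folding machinery put the members in context. Of 24 genes tested of the endoplasmic reticulum chaperones and the unfolded protein response, the setting of Hspa5, 5 were higher in lung than in spleen in GF mice and 4 in SPF mice, with 0 lower in either, where 8.03% and 7.68% of all genes were called higher. Against blood, 6 were higher and 0 lower in GF lung, where 7.83% of all genes were called higher. In SPF lung 8 were higher and 3 lower than in blood, where 12.5% of all genes were called higher and 6.63% lower. Hsp90b1, the HSP90 of that compartment, averaged 195 ± 40.2 in GF lung, 92.8 ± 39.7 in GF spleen and 66.5 ± 0.187 in GF blood (SD, n = 3, 3 and 2). It was higher in GF lung than in GF spleen (1.09, adjusted p = 0.0118) and than in GF blood (1.48, adjusted p = 0.00193). Calr, a lectin chaperone of glycoproteins, was higher in SPF lung than in SPF spleen (1.31, adjusted p = 0.00146). It was also higher in GF than in SPF spleen, at 101, 119 and 120.1 in GF spleen against 45.7, 59.6 and 37.6 in SPF spleen (1.21, adjusted p = 0.0499).

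The regulator Ppp1r15a, which restores translation after stress and is itself an early response gene, measured 1841 ± 31.7 in GF lung and 23 ± 2.93 in GF spleen (6.14, adjusted p = 5.3e-08). Genes of the same response did not all go that way. Ddit3 and Xbp1, transcription factors of the unfolded protein response, were at a lower level in lung than in blood of SPF mice (-1.19 and -0.95, adjusted p = 0.00951 and 0.0106).

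The co-chaperones of HSP70 and HSP90 were called in few cases. Of 19 tested, 3 were higher in lung than in spleen in GF mice and 2 in SPF mice, with 0 lower, beside 8.03% and 7.68% of all genes called higher. Their median differences of 0.25 and 0.08 stood beside 0.11 and 0.06 over all genes. Between GF and SPF spleen 0 were higher and 1 lower, where 0.0723% of all genes were called lower. That gene was Bag1, a nucleotide exchange factor of HSP70, at 0, 2.47 and 0 in GF spleen against 7.62, 59.6 and 70.5 in SPF spleen (-3.24, adjusted p = 0.0049). Over the 3 tissues 1 co-chaperone was higher in GF mice, the HSP90-bound immunophilin Fkbp5 (2.07, SE 0.35, adjusted p = 0.00184). It ran from 25.7 to 47.1 in GF lung, 37.0 to 66.1 in GF spleen and 22.2 to 36.5 in GF blood, against 1.97 to 14.6 in SPF lung, 0 to 18.8 in SPF spleen and 3.61 to 10.6 in SPF blood. Few reads lay behind these values in the shallow libraries, where 1 read was worth up to 7.62 (SPF spleen replicate 1) and 7.41 (GF blood replicate 3). Fkbp5 is also known as a gene induced by glucocorticoids.

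Among 20 other J-domain genes tested, 1 was higher in lung than in spleen in GF mice and 3 in SPF mice, with 0 lower, so that the GF count was under the 8.03% of all genes called higher and the SPF count stood beside 7.68%. Dnajb4 was among them in both (2.46 and 2.44, adjusted p = 0.0036 and 0.00396), at 22.2 ± 3.03 in GF lung and 2 ± 3.47 in GF spleen. Cryab, a small heat shock protein, averaged 27.7 ± 6.64 in GF lung and 36.6 ± 7.98 in SPF lung, against 0 reads in all 6 spleen libraries. Hsf1 itself was low, at 14.6 to 25.4 in GF lung, 9.85 to 24.0 in SPF lung, 10.1 to 14.8 in GF spleen, 0 to 14.1 in SPF spleen, 7.02 to 7.41 in GF blood and 7.68 to 7.84 in SPF blood. It was called in no comparison. Hsbp1, a small protein that binds HSF1, averaged 90.1 in SPF lung and 81.0 in SPF spleen, against 182 in SPF blood, and was lower than in blood in both (-0.99 and -1.15, adjusted p = 0.0302 and 0.0287).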

How the data were processed

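Neutrophils from lung, spleen and blood of GF and SPF mice were sequenced in paired-end mode, per the labels. The submitters' processing notes name CASAVA, RSEM 1.3.1, limma and the assembly mm10. The annotation version, filter and scaling are not given in the sources used here. The deposited values are a linear signal, 1 for each gene in each library, and the header names no unit. Its low values are mostly odd multiples of the column's smallest value, the form of an expected count plus 0.5 divided by an effective library size. Levels are the value less the column minimum, and reads were recovered from the same relation. Of low values, 91.4% to 98.7% lay within 0.05 of a whole read, so no count test was run.

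The test covered 8299 genes that reached 10 in 2 libraries or more and left out 1997. Differences were fitted in limma 3.58.1 (R 4.3.3) on log2(value + 1), with 6 group means in 1 model of 16 libraries, a prior that was trended and robust, and two-sided p-values adjusted by Benjamini-Hochberg over all genes of a comparison, at 0.05. This scale understates changes of low genes. The offset is larger in shallow libraries. All libraries had equal weight in the main fit, so the SE of a spleen difference rests partly on deeper lung and blood libraries. Identical libraries were not found (highest Pearson r 0.959). Symbols matched GENCODE M21 for 10275 identifiers.

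The text names all 8 members, up to 3 called genes of smallest p per list, comparison and direction, and 5 genes of most similar pattern for each of Hspa8, Hspa5 and Hspa1a. Hsf1 and the Ppp1r15a, Calr, Bag1 and Fkbp5 values per library were chosen for display after their values were seen. Members and lists were chosen with earlier results of these data known. Comparisons of one group with several others share its libraries.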

Additional observations from a re-analysis of the deposited data

How the results depend on the processing

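No member difference that passed turned its sign in any setting: of 351 values recomputed for 13 called differences under 27 settings, 316 passed and 35 kept the direction without passing. Dnaja1 and Hspa5 in lung against spleen, SPF, passed in all 27. Without a trended and robust prior the members called numbered 1 in lung against spleen, GF, 3 in lung against spleen, SPF, and 0 in lung against blood, SPF, in spleen against blood, SPF, in GF against SPF spleen and in GF against SPF over the 3 tissues. Without the 5 libraries under 250000 reads they numbered 2 in lung against blood, GF, 3 in lung against blood, SPF, 2 in lung against spleen, SPF, and 0 in spleen against blood, SPF, in GF against SPF spleen and over the 3 tissues. Lone libraries are then assumed to vary like the other groups. A limit of 100 gave 1 in lung against blood, GF, and 3 over the 3 tissues. Median-ratio rescaling gave 3 over the 3 tissues, and quantile normalization 2 there and 1 in spleen against blood, SPF. Array weights gave 3 in lung against blood, SPF, and 2 over the 3 tissues. Counts in this section are given without the share of all genes called under each setting. A changed count therefore cannot be told from a change over all genes.

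Leaving out 1 library at a time gave 0 to 1 called in lung against blood, GF, 1 to 2 in lung against spleen, GF, 0 to 1 in lung against blood, SPF, 4 to 5 in lung against spleen, SPF (without SPF lung replicate 2, Hspa8 and Hsp90aa1 were lost and Hspa1a was called), 0 to 2 in spleen against blood, SPF, 1 to 2 in GF against SPF spleen, and 1 to 3 over the 3 tissues. Over the 3 tissues the count was 3 without GF spleen replicate 1 and 2 without SPF lung replicate 2, SPF spleen replicate 1 or 4, GF blood replicate 2 or SPF blood replicate 3. In lung against blood, GF, it was 1 without GF spleen replicate 1, SPF spleen replicate 1 or either GF blood library. Summing Hspa1a with Hspa1b moved Hspa1a in spleen against blood, GF, to -0.08 and Hspa1b in spleen against blood, SPF, to -0.19, neither passing apart or summed. The sum was fitted in the main setting alone and is not among the called differences counted above. Quantile normalization moved the median of all genes to -0.14 in lung against blood, GF, against 0.15 as reported, and the share of called genes that were higher to 58.7% in lung against spleen, GF, and 60.6% in lung against spleen, SPF. The cause of these changes was not tested.

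Same-numbered libraries of one status had deviations correlated between -0.13 and 0.07 in 9 pairs. Libraries of the same status with different numbers gave -0.11 to 0.13 in 33 pairs, so the numbers showed no pairing. With few libraries per group and shallow spleen libraries, these correlations cannot decide whether same-numbered libraries came from the same mouse. With the replicate block, 1 member (Hsp90ab1) was called in lung against blood, GF, and 4 in lung against spleen, SPF, where Hsp90aa1 was lost (0.94, adjusted p = 0.0971). The edgeR and DESeq2 tests were not run, because too many low values were fractional for a count test. Depth limited the inducible pair most: Hspa1a and Hspa1b together had 1 to 10 reads in spleen libraries.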
